A study of Mus musculus with 21 samples.

Results

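Thalamus marker genes were followed in dissected mouse hypothalamus, the brain region that lies directly below the thalamus. The 10 genes are Gbx2, Rora, Prkcd, Synpo2, Ntng1, Calb2, Slc17a6, Slc17a7, Tcf7l2 and Lef1. They are 10 of the 25239 gene symbols in the hypothalamus table, and all 10 had a mean value of at least 10 there, the level at which 16363 genes were tested. They are known thalamus markers selected on the hypothalamus values of this study, after a thalamus gene list had been seen higher in Ins2 than in control mice, so that difference is given below as a description, and nothing is read from how many members pass a threshold in it.

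The animals were wild-type C57BL/6J mice. In 1 group the insulin gene Ins2 was overexpressed in the choroid plexus, the tissue of the brain ventricles that makes cerebrospinal fluid. The other group was a control that the labels list as receiving no treatment, although the deposited hypothalamus columns of these controls carry a GFP prefix. Bulk RNA sequencing covered 5 control and 5 Ins2 hypothalamus libraries (controls numbered 1, 2, 3, 4 and 6) and 5 control and 6 Ins2 choroid plexus libraries. Age, sex and the way in which Ins2 was introduced are not in the labels. Whether the replicates are separate animals is not in the labels either, and the spread behind each p-value may therefore be technical.

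The thalamus is made largely of excitatory relay nuclei that send axons to the cortex. Gbx2 and Tcf7l2 are transcription factors of its development and identity, and Lef1 is the close relative of Tcf7l2 that also acts in canonical Wnt signalling. Relay neurons load glutamate into vesicles with the transporter encoded by Slc17a6, while Slc17a7 encodes the transporter typical of cortex and hippocampus that some thalamic nuclei also use. Several of these genes are active in the hypothalamus as well, so their RNA in a hypothalamus sample need not come from the thalamus. In bulk tissue, fewer cells of a type and less RNA per cell cannot be told apart.

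Hypothalamus libraries held 27.4 to 62.1 M reads (M, 1000000 reads) and choroid plexus libraries 25.95 to 36.3 M. Values are scaled reads, which are gene counts divided by a size factor of the library, and the 2 tissues were scaled separately. The overexpressed gene matched the labels in choroid plexus, where Ins2 was at 430 ± 50.7 scaled reads in controls (SD, n = 5) and 826 ± 162 in Ins2 libraries (SD, n = 6). In hypothalamus Ins2 had no read in 9 of 10 libraries. All 30 hypothalamus marker genes examined, from Avp to Nkx2-1, passed the level filter in the hypothalamus table.

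The stretches upstream of 4 members are shown because these genes span the observed patterns: Synpo2, Slc17a7 and Tcf7l2 were positively correlated over hypothalamus libraries, and Slc17a6 is an abundant member that varied little. RefSeq promoter windows on GRCm38.p6, of 250 bases before and 50 after a start, were matched by symbol for 9 of 10 members (15 windows, with several starts for some genes); Calb2 had none. Each sequence is the 250 bases before the start, 5′ to 3′ on the gene's strand, and capitals mark TAATTA, a core letter string bound by many homeodomain proteins.
Synpo2, chr3:123236150-123236399, minus strand: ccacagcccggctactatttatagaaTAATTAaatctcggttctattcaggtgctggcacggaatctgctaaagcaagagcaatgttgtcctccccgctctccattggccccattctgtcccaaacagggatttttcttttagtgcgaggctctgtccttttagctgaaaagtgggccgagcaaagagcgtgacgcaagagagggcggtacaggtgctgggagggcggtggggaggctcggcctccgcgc
Slc17a6, second start, chr7:51624387-51624636, plus strand: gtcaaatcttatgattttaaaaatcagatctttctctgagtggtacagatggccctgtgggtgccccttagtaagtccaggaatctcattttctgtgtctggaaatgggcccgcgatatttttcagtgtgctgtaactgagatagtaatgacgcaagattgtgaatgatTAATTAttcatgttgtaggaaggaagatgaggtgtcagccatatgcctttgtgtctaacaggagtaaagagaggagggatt
Slc17a7, chr7:45163671-45163920, plus strand: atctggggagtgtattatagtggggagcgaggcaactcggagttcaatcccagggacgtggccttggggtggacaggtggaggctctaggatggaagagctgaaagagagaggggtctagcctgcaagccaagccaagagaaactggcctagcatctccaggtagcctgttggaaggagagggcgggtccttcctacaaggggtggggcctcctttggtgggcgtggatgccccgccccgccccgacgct
Tcf7l2, first start, chr19:55741560-55741809, plus strand: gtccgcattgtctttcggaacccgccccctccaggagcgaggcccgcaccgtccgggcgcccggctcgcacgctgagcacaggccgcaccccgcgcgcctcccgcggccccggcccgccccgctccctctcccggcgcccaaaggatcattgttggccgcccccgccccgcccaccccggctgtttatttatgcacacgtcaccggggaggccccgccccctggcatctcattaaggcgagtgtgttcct
On either strand of the 300-base windows, TAATTA stood in 2 of 15 member windows, those of Synpo2 and Slc17a6 printed above, and in 5.29% of all 32851 windows. The letters CTTTGAT and CTTTGAA, which TCF and LEF proteins bind, stood in 0 of 15 member windows each and in 3.73% and 5.14% of all windows. AGGTCA, a short site of nuclear receptors such as the product of Rora, stood in 0 of 15 and in 16.3% of all. The printed Tcf7l2 stretch had a GC content of 72.8%, that of Slc17a7 61.2%, that of Synpo2 54.4% and that of Slc17a6 41.2%. At the starts not printed it was 40.8% for Tcf7l2 and 53.2% for Slc17a6, so the order depends on the start shown. These matches describe letters only.

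Per kilobase of annotated exon, the members spanned a wide range of levels in control hypothalamus. Calb2, which encodes the calcium-binding protein calretinin, stood at the top with 5957 ± 296 scaled reads per kb of exon (SD, n = 5), followed by Slc17a6 with 1962 ± 121. Ntng1, a membrane-anchored netrin relative, followed with 225 ± 11.8. Tcf7l2 with 111 ± 26.1 and Rora with 110 ± 6.58 were within their spread of each other, and Prkcd lay at 80.5 ± 10.7. Lef1 was lower with 45.6 ± 4.63. Synpo2 with 19.5 ± 4.57 and Gbx2 with 18.0 ± 7.12 again did not differ beyond their spread, and Slc17a7 came last with 6.69 ± 1.74. Gbx2 and Slc17a7, at the bottom of this order, were read from 19 to 245 and from 23 to 204 reads per library, so their single values are the least precise.

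Gbx2, a homeodomain factor of the developing thalamus, lies on chromosome 1 from 89927956 to 89931179 (GRCm38, minus strand). Its control values were 38.8, 59.3, 18.6, 31.7 and 48.0 scaled reads, and its Ins2 values were 36.9, 140.9, 97.4, 64.4 and 63.9. Ins2 replicate 1 lay among the controls, while the other 4 Ins2 libraries lay above every control. The means were 39.3 ± 15.5 and 80.7 ± 39.9 (SD, n = 5 each), a log2 fold change of 0.98 (SE 0.34). Because 43.5% of the exon bases of Gbx2 are shared with D130058E05Rik on the opposite strand, and the strand setting of the counting is not given in the sources used here, this level is uncertain.

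Slc17a7 encodes the vesicular glutamate transporter VGLUT1 and lies on chromosome 7 (45163949 to 45176142). It was at 35.8, 26.2, 28.4, 40.6 and 49.3 scaled reads in controls, and at 30.6, 117.3, 108.3, 104.6 and 87.6 in Ins2 libraries. The split was as for Gbx2: Ins2 replicate 1 lay among the controls and the other 4 lay above all of them. Its means of 36.1 ± 9.37 and 89.7 ± 34.8 gave a log2 fold change of 1.19 (SE 0.32).

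Tcf7l2 encodes a transcription factor of the Wnt pathway that shapes thalamic neurons, on chromosome 19 (55741820 to 55933654). Controls were at 783, 1277, 776, 886 and 1157 scaled reads, and Ins2 libraries at 743, 1487, 1709, 1011 and 1273. Ins2 replicate 1 was the lowest of all 10 libraries, and Ins2 replicates 2 and 3 were the highest. The groups overlapped, with means of 976 ± 229 and 1245 ± 381 and a log2 fold change of 0.32 (SE 0.17). It was 0.49 without Ins2 replicate 1 and 0.19 without Ins2 replicate 3.

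Synpo2, an actin-binding protein gene on chromosome 3 (123076519 to 123236149), gave 219, 254, 252, 197 and 353 scaled reads in controls. In Ins2 libraries it gave 258, 338, 405, 353 and 381. Control replicate 6 lay within the Ins2 range, and Ins2 replicate 1 lay within the control range. Means of 255 ± 59.8 and 347 ± 55.8 gave a log2 fold change of 0.46 (SE 0.15).

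Prkcd, which encodes the delta isoform of protein kinase C, lies on chromosome 14 (30595354 to 30626210). It gave 454, 461, 448, 353 and 518 scaled reads in controls and 482, 596, 526, 581 and 531 in Ins2 libraries. Only control replicate 6 exceeded the lowest Ins2 library, replicate 1. Means of 447 ± 59.4 and 543 ± 46.0 gave a log2 fold change of 0.29 (SE 0.10).

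Rora encodes a nuclear receptor of thalamic and other neurons, on chromosome 9 (68653786 to 69388246), with 0.627% of its exon bases shared with Gm15511 on the opposite strand. It was at 1523, 1309, 1476, 1385 and 1480 scaled reads in controls and at 1596, 1553, 1649, 1619 and 1580 in Ins2 libraries. It was the 1 member whose groups did not overlap. The difference was small, with a log2 fold change of 0.16 (SE 0.06) on means of 1435 ± 86.0 and 1599 ± 36.5.

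Ntng1, on chromosome 3 (109780040 to 110144011), gave 1807, 2026, 1834, 1790 and 1813 scaled reads in controls and 1784, 2159, 2161, 1943 and 2223 in Ins2 libraries. Ins2 replicate 1 was again the lowest library, and control replicate 2 stood above the other controls. The log2 fold change was 0.14 (SE 0.06). Slc17a6 encodes the transporter VGLUT2 used by thalamic and many hypothalamic neurons (chromosome 7, 51622006 to 51671119), and it ranged from 9589 to 11198 in controls and from 10944 to 11827 in Ins2 libraries, with a log2 fold change of 0.09 (SE 0.04). Its lowest library was control replicate 3.

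Calb2 and Lef1 showed the smallest differences. Calb2, which many hypothalamic neurons also express (chromosome 8, 110137502 to 110168210), ranged from 9628 to 10968 scaled reads in controls and from 9234 to 10969 in Ins2 libraries. Lef1, on chromosome 3 (131110471 to 131224356), ranged from 340 to 454 and from 353 to 481. Their log2 fold changes were -0.05 (SE 0.05) and 0.04 (SE 0.10), and the groups overlapped in both genes. Of the Lef1 exon bases, 13.7% are shared with Gm43352 on the opposite strand.

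**Figure D1:**
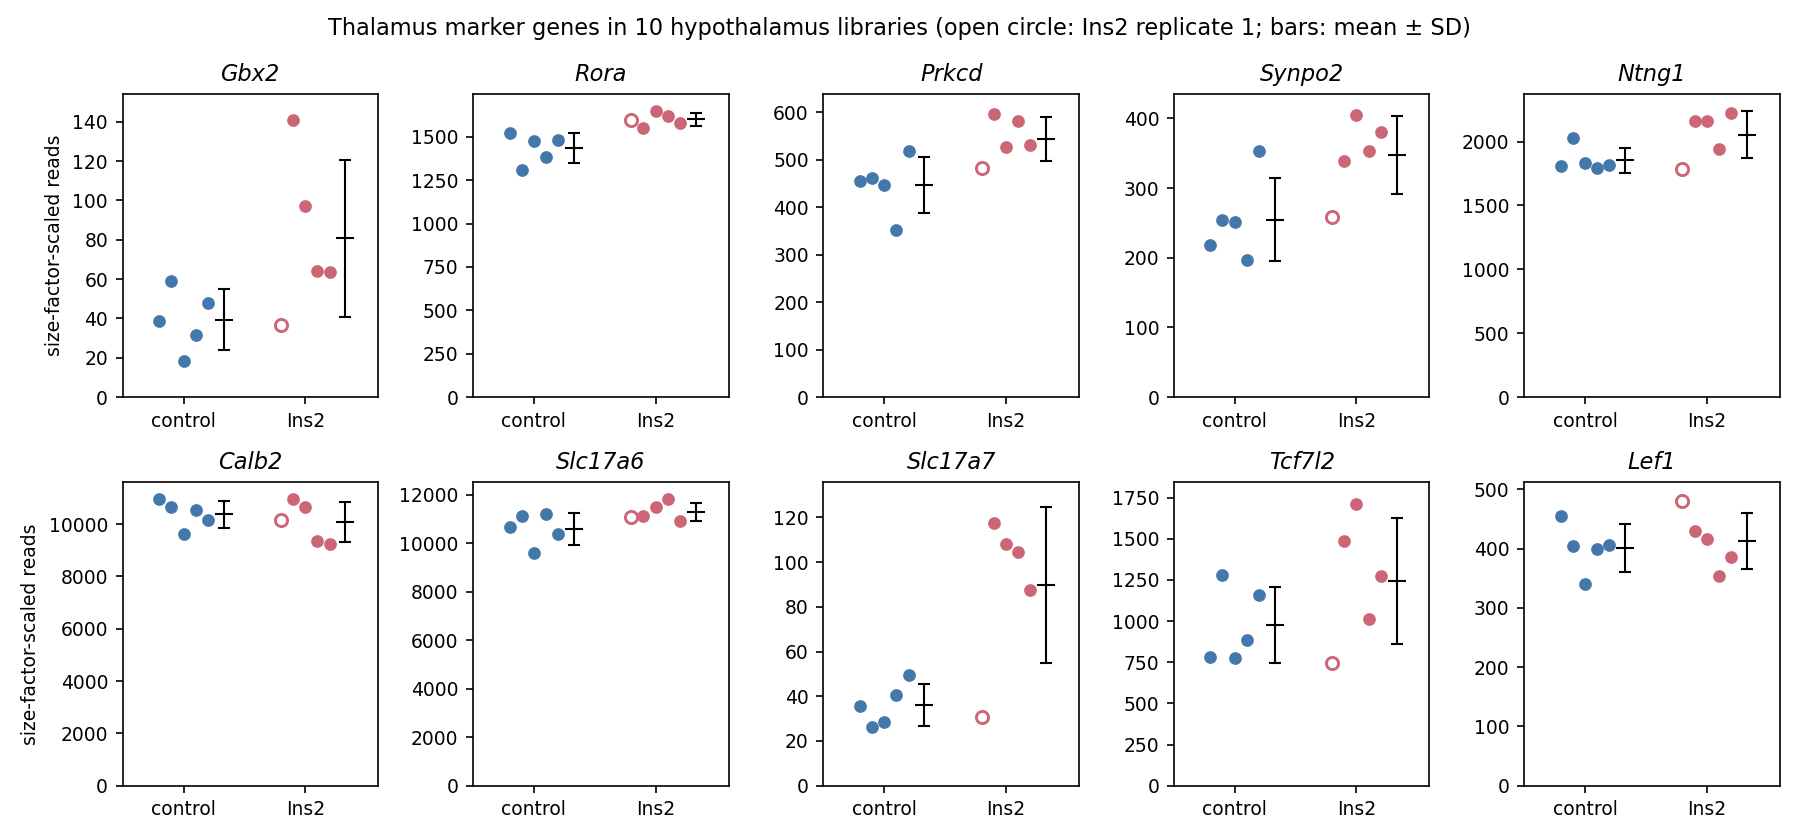
Scaled reads of each of the 10 members in the 5 control and 5 Ins2 hypothalamus libraries, 1 panel per gene with its own axis; points are libraries (open circle, Ins2 replicate 1) and bars are the group mean ± SD. In Gbx2, Slc17a7 and Tcf7l2 Ins2 replicate 1 lies with the controls, and only the Rora groups do not overlap.

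Across the 10 members, 0 passed the threshold of 0.05 adjusted over all 16363 genes with limma, against 0% of all genes. At an unadjusted p under 0.05, limma placed 7 of 10 members higher and 0 lower, beside 5.85% of all genes higher, 4.08% lower and 9.92% in either direction. The log2 fold change was above 0 for 9 of 10 members, beside 50.3% of all genes, and the median was 0.22 beside 0.00 over all genes. Ranges did not overlap, with Ins2 higher, in 1 of 10 members and in 0.77% of all genes, and with Ins2 lower in 0 of 10 members and 0.727% of all genes. The count tools edgeR and DESeq2, run on recovered reads, also called 0 members, and for 6 members DESeq2 gave no adjusted p. Over all genes limma and edgeR called 0 hypothalamus genes, limma had 957 higher and 667 lower at an unadjusted p under 0.05, and DESeq2 called 15 higher and 6 lower. This contrast led to the choice of the members, so these counts are no support for a difference.

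**Figure D2:**
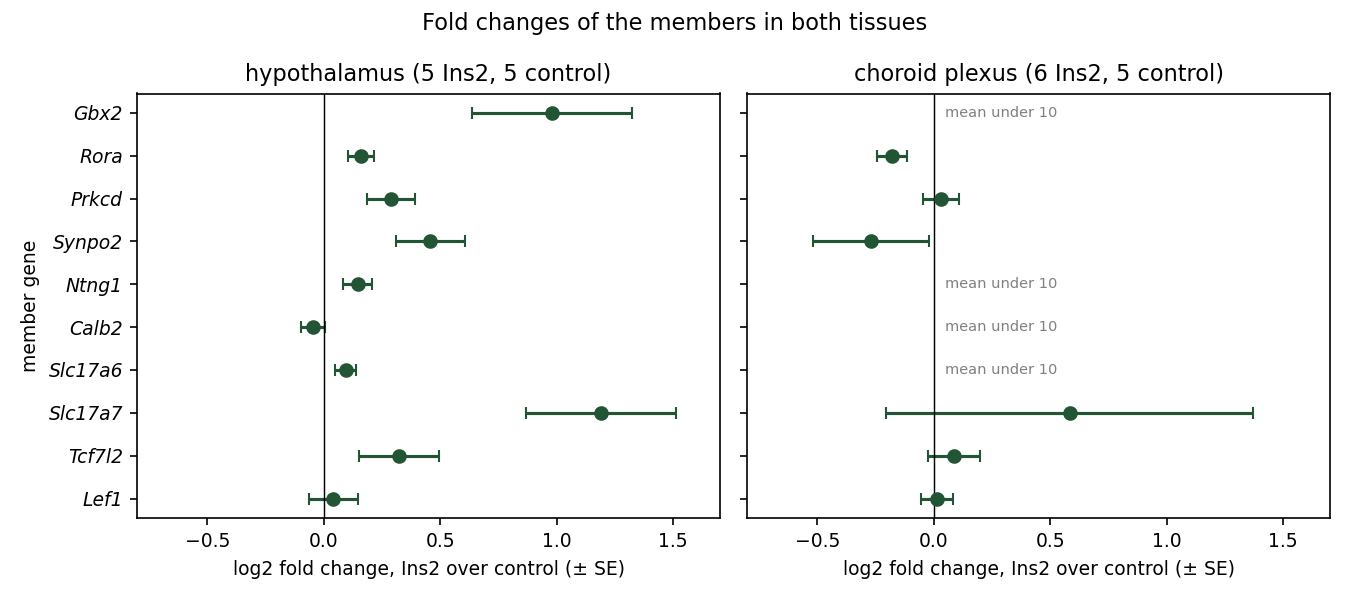
Log2 fold change, Ins2 against control, of the members in hypothalamus and choroid plexus, on the log2(scaled reads + 1) scale; points are limma estimates and bars are ± 1 SE. In hypothalamus Slc17a7 (1.19) and Gbx2 (0.98) lie farthest from 0, and in choroid plexus only 6 members reached the level filter.

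The libraries of a group differed from each other in the members as a set. In Ins2 replicates 2 and 3, 10 of 10 members stood above their own median over the 10 libraries. In Ins2 replicates 4 and 5 it was 7 of 10 each, and in Ins2 replicate 1 it was 2 of 10. Among controls the number was 0 in replicate 3, 2 in replicates 1 and 4, and 5 in replicates 2 and 6. Ins2 replicate 1 thus lay with the controls in this count.

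Joint variation was measured after removing each group's mean, which takes out the mean difference between the groups. The members were chosen on these same libraries, so their correlations are not independent of that choice. The p-values of the pairs are therefore given as a description. Over the 45 pairs of members the median Pearson correlation across 10 libraries was 0.20, beside -0.001 over all pairs of the 16363 genes. It was positive in 31 of 45 pairs (68.9%, against 49.9% of all pairs) and at least 0.5 in 11 of 45 (24.4%, against 10.5%). With permutation p-values adjusted by Benjamini-Hochberg over the 45 pairs, 0 pairs passed 0.05 by Pearson or by Spearman correlation. An unadjusted Pearson permutation p under 0.05 was found for 7 of 45, and the matching share over all gene pairs was not computed. The share at or above 0.5 rested on 1 library: without Ins2 replicate 1 it was 6 of 45 (13.3%), beside 12.4% of all gene pairs, while the median was 0.21.

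The highest correlation joined Gbx2 and Tcf7l2, with Pearson r = 0.852 (permutation p = 0.0017, adjusted 0.0648) and Spearman rho = 0.842 (permutation p = 0.00353, adjusted 0.159). Without the 2 libraries farthest from the median of Gbx2, r was 0.785. Ntng1 and Tcf7l2 followed with r = 0.838 (permutation p = 0.00288, adjusted 0.0648), rho = 0.733 (permutation p = 0.0206) and r = 0.655 without the 2 farthest libraries. Both pairs, of transcription factor and adhesion genes, kept a positive r without those libraries and did not pass the adjusted threshold.

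Of 3 further pairs, chosen by no fixed rule, 2 had a much lower r without the 2 farthest libraries. Pairs not chosen included Synpo2 with Tcf7l2 (r = 0.683, and 0.527 without the 2 farthest libraries). Others were Gbx2 with Ntng1 (0.664 and 0.417) and Slc17a7 with Tcf7l2 (0.630 and 0.714). Prkcd and Synpo2 had r = 0.720 (permutation p = 0.0195) and rho = 0.455 (permutation p = 0.192), and r was 0.389 without the 2 farthest libraries. Gbx2 and Slc17a7 had r = 0.624 (permutation p = 0.0507) and rho = 0.564 (permutation p = 0.0974), and r fell to 0.195 without Ins2 replicates 1 and 2, so that this relation rests on those samples. Calb2 and Lef1, the members with the smallest group differences, had r = 0.730 (permutation p = 0.0169), rho = 0.60 (permutation p = 0.0731) and 0.605 without the 2 farthest libraries.

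The members did not all vary together. Gbx2, Tcf7l2, Ntng1, Synpo2, Slc17a7 and Prkcd, a subset picked after these values were seen, were positively correlated in 15 of 15 pairs, from 0.31 to 0.85. Between these 6 and the other 4 members the correlation was positive in 12 of 24 pairs, with a median of -0.01. Rora, whose group ranges did not overlap, had weak correlations of either sign with these 6. They were positive with Prkcd (r = 0.20), Synpo2 (0.20) and Slc17a7 (0.18), and negative with Gbx2, Ntng1 and Tcf7l2 (-0.317). The lowest r of Rora was -0.405, with Slc17a6 (permutation p = 0.248). With Gbx2, Rora had r = -0.317 (permutation p = 0.373) and rho = -0.0667 (permutation p = 0.863). With Ntng1 it had r = -0.388 (permutation p = 0.269) and rho = -0.261 (permutation p = 0.472). Without the 2 farthest libraries r was -0.313 with Gbx2 and -0.0647 with Ntng1.

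**Figure D3:**
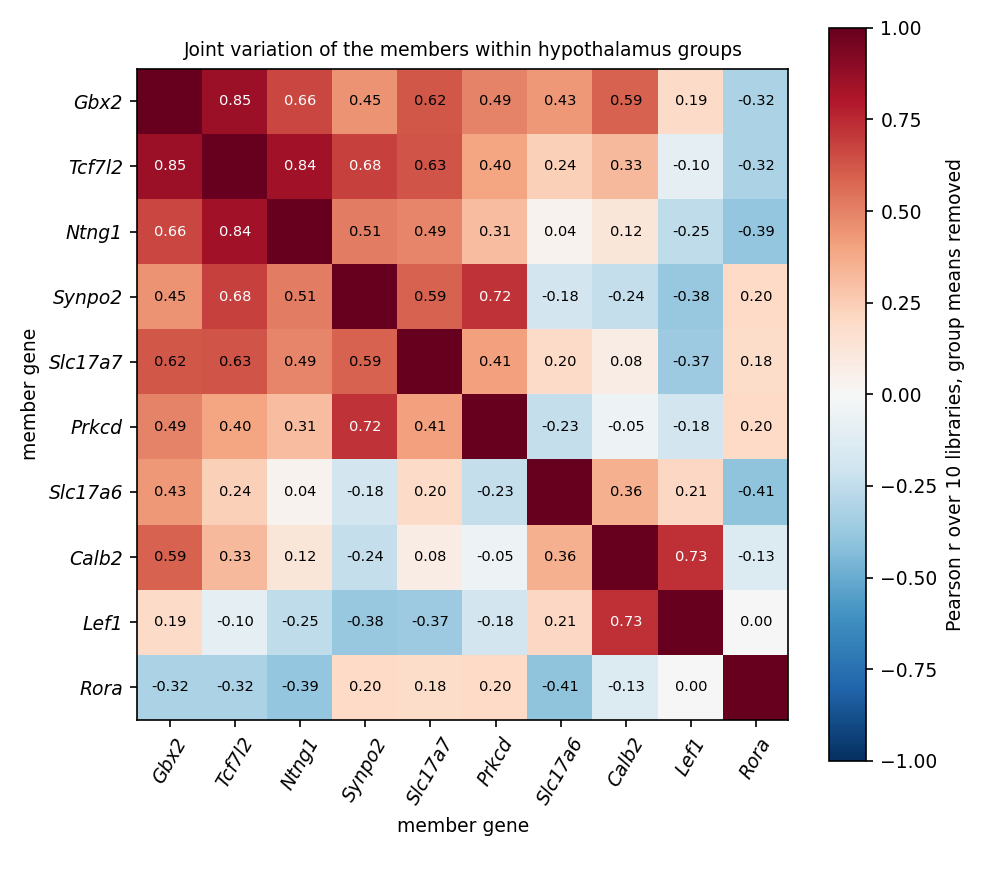
Correlation of the members over the 10 hypothalamus libraries after group means were removed, shown as Pearson r for each of the 45 pairs. The highest value joins Gbx2 and Tcf7l2 (0.852). The pairs of Rora with Gbx2, Tcf7l2 and Ntng1 are negative, and those with Prkcd, Synpo2 and Slc17a7 are positive.

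The genes whose pattern was most like the mean standardised level of the 10 members were ranked by Pearson r over the 10 hypothalamus libraries, with group means removed and as a description with no test. Rbfox1, a neuronal splicing regulator, led with r = 0.97, followed by Dsel (0.96), the calcium-binding protein gene Necab1 (0.94), Cds1 (0.94) and Efr3b (0.94). Next came Tspan18 (0.92), Cnnm4 (0.91), Plekhm3 (0.91), Copg1 (0.90) and Stac2 (0.88). Without Ins2 replicate 1 these values ran from 0.86 to 0.95, for genes picked with that library included. Top values of a ranking over so many genes and only 10 libraries are high by selection. Rbfox1 itself had a mean of 5918 scaled reads.

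Lists of other genes, called 0 times each in hypothalamus with limma (0% of all genes), give the setting. Of 20 other thalamus-enriched genes, 16 had a log2 fold change above 0 (50.3% of all genes), with a median of 0.07 and 4 higher and 1 lower at an unadjusted p under 0.05. That median was 0.04 without control replicate 3, 0.05 without Ins2 replicate 3 and 0.12 without control replicate 6. Their summed level was 25418 to 27653 scaled reads in controls and 26962 to 28814 in Ins2 libraries. Their median correlation with the members' score was 0.42 (all genes -0.005, paralogs and partners 0.29, Wnt pathway 0.26, reticular thalamus and zona incerta 0.26). The most abundant were Adarb1, an RNA editing enzyme gene, at 5987 ± 596 and 6602 ± 231 (log2 fold change 0.15, SE 0.06, limma adjusted p = 0.414), and the synapse organiser Cbln1 at 4842 ± 176 and 4953 ± 267 (0.03, SE 0.05, limma adjusted p = 0.847). No gene of these lists was at 0 in every library.

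Single thalamus-enriched genes differed widely, and 3 are named here after their values were seen. Shox2, a homeobox gene of thalamic and habenular neurons, was at 14.2, 71.9, 44.1, 52.0 and 89.5 scaled reads in controls and at 20.0, 161.1, 223.4, 62.1 and 99.9 in Ins2 libraries. Ins2 replicate 1 was again low, and Ins2 replicates 2 and 3 were the highest. The groups overlapped (log2 fold change 0.87, SE 0.51, limma adjusted p = 0.583). Grid2ip had a log2 fold change of 0.60 (SE 0.18, limma adjusted p = 0.326), whereas Prox1, a homeobox gene, had -0.17 (SE 0.07, limma adjusted p = 0.458).

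Genes of regions around the hypothalamus were also called 0 times. In the list for the reticular thalamus and zona incerta, led by Ecel1 (log2 fold change 0.03) and Dlx1 (-0.06), 9 of 10 genes had a log2 fold change above 0, with a median of 0.09. Without control replicate 4 it was 6 of 10 with a median of 0.02, and without Ins2 replicate 4 it was 7 of 10 with 0.05. Among habenula genes, led by Pcdh10 (0.09) and Tac1 (-0.14), it was 9 of 14 with a median of 0.08, and Pou4f1, a defining habenula factor, was below the level filter. Subthalamic and mammillary genes, led by Nkx2-1 (-0.09), had 6 of 8 above 0 and a median of 0.14. The list of cortex and hippocampus genes, where Slc17a7 is abundant, had 7 of 13 above 0 and a median of 0.01, with Camk2a at 0.10 and Rasgrf2 at -0.06. The part of each neighbouring tissue in the members' differences was not tested.

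Hypothalamus genes lay mostly below 0. Of 30 genes, 8 had a log2 fold change above 0 (50.3% of all genes) and 22 below, with a median of -0.09. At an unadjusted p under 0.05 limma placed 2 of them higher and 2 lower. Their median correlation with the members' score was -0.30 (pituitary -0.42, endothelial -0.26, striatum -0.23, choroid plexus epithelium -0.21). Their summed level was 95877 to 107094 scaled reads in controls and 96018 to 106101 in Ins2 libraries, so the groups overlapped. The most abundant were Baiap3, a vesicle release gene (log2 fold change 0.09), and the hormone gene Avp (0.00). Pituitary genes had 2 of 7 above 0 and a median of -0.67, which ran from -1.48 to -0.02 over the alternatives (-0.02 without control replicate 6). Cga, a pituitary hormone subunit gene, was at 6.71 to 473 scaled reads in controls and 0 to 318 in Ins2 libraries (log2 fold change -2.67, SE 1.23, limma adjusted p = 0.486). The pituitary sum ran from 154 to 820 in controls and from 101 to 655 in Ins2 libraries. Whether these levels bear on the members' differences was not tested.

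The remaining lists had medians near 0. The median log2 fold change was 0.00 for 12 striatum genes, -0.05 for 10 midbrain genes, 0.00 for 9 choroid plexus epithelium genes, 0.02 for 12 oligodendrocyte genes, 0.01 for 10 astrocyte genes and -0.03 for 12 endothelial genes. The midbrain list summed to 2122 to 5678 scaled reads in controls and 2383 to 2945 in Ins2 libraries. Rn45s, a ribosomal RNA gene that poly(A) selection should largely remove, was at 67858 ± 7778 in controls and 108967 ± 29121 in Ins2 libraries (SD, n = 5 each), with ranges of 55869 to 76254 and 88136 to 150583 that did not overlap. It was highest in Ins2 replicate 1, a library in which 2 of 10 members stood above their median. Its part in the members' differences was not tested.

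Of 30 genes of the Wnt pathway, to which Tcf7l2 and Lef1 belong, 0 passed the threshold with limma, 21 had a log2 fold change above 0 and the median was 0.08. Ctnnb1, which encodes the coactivator beta-catenin, had 0.04 and the kinase gene Gsk3b -0.01. Axin2, a feedback target of the pathway, was at 1293 ± 139 scaled reads in controls and 1243 ± 93.2 in Ins2 libraries (log2 fold change -0.05, SE 0.08, limma adjusted p = 0.843), and its ranges overlapped. Among 21 paralogs and partners of the members, 0 passed, 16 were above 0 and the median was 0.06. Of these, the inhibitory-neuron genes Gad2 and Gad1 had log2 fold changes of 0.03 and 0.00.

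**Figure D4:**
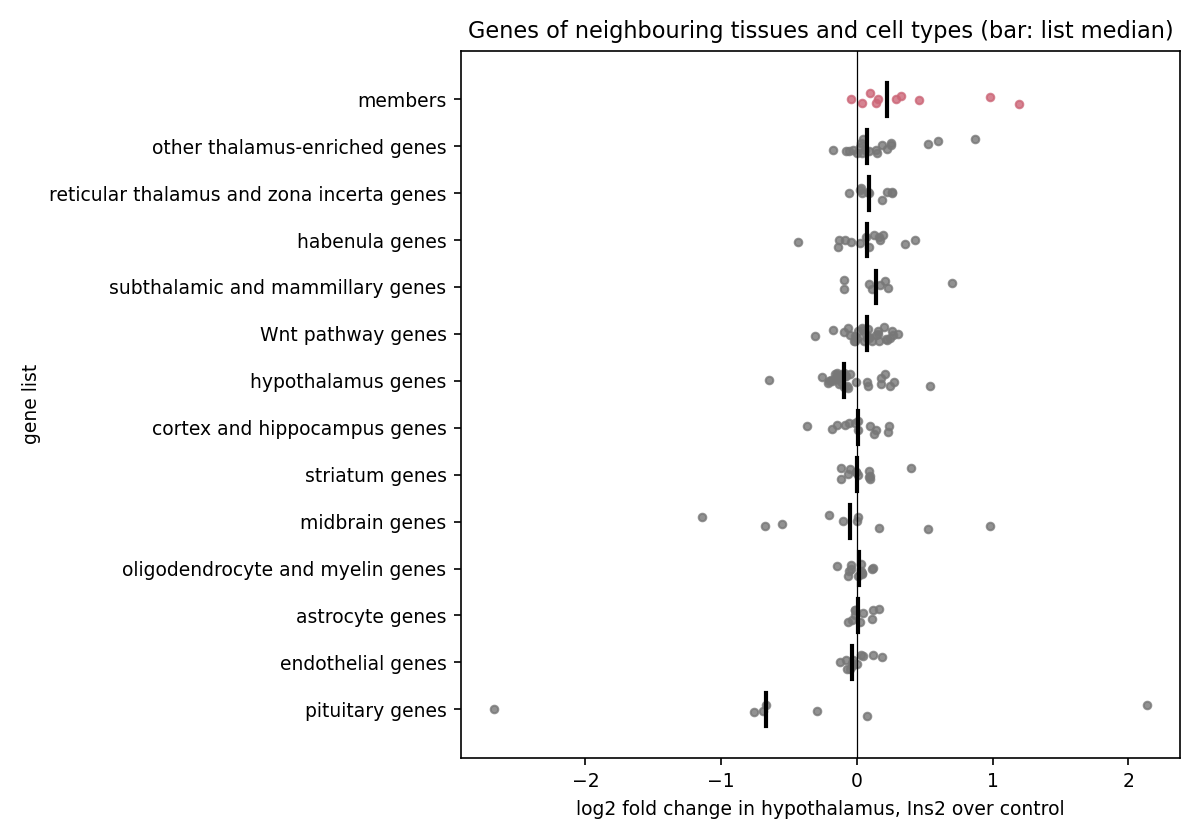
Log2 fold change, Ins2 against control, of each gene tested in the members and 13 other lists in hypothalamus; points are genes, thick bars are list medians and the thin line marks 0. The members' median is 0.22, that of other thalamus-enriched genes 0.07 and that of hypothalamus genes -0.09.

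Choroid plexus, where the same 10 genes were measured in other libraries, gave a separate set of values. Only 6 members reached a mean of 10: Rora, Prkcd, Synpo2, Slc17a7, Tcf7l2 and Lef1. Gbx2 had no read in 10 of 11 libraries and 3 reads in Ins2 replicate 4, and a count of 0 allows up to 0.116 reads per M (counting error only). Calb2, Ntng1 and Slc17a6, which were abundant in hypothalamus, had at most 14, 8 and 4 reads in any choroid plexus library.

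No member passed the threshold in choroid plexus (0 of 6 with limma, against 0.0138% of all 14533 genes), and edgeR and DESeq2 also called 0 of 6, with no adjusted p from DESeq2 for 3 of them. At an unadjusted p under 0.05 limma placed 1 of 6, Rora, lower and 0 higher, beside 3.67% of all genes lower, 2.54% higher and 6.21% in either direction. The log2 fold change was above 0 in 4 of 6 members and 48.4% of all genes. Ranges overlapped in all 6, while over all genes 0.234% lay apart with Ins2 higher and 0.392% with Ins2 lower. Rora was at 2118, 2152, 2216, 2232 and 2403 scaled reads in controls and at 1772, 2269, 1922, 2034, 1796 and 2027 in Ins2 libraries. Of the 6 Ins2 libraries 5 lay below every control, and Ins2 replicate 2 lay among them. The log2 fold change was -0.18 (SE 0.07, limma adjusted p = 0.699). An exact two-sided permutation test of the library labels (462 arrangements) gave p = 0.0281, unadjusted, where 0.00216 is the smallest possible. The same permutation test was run on all 6 members. Its p for the members other than Rora ran from 0.342 (Synpo2) to 0.816 (Lef1), so the Rora value is the smallest of 6.

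Slc17a7 was at 19.6, 14.6, 19.6, 7.92 and 8.63 scaled reads in choroid plexus controls. In Ins2 libraries it was at 57.6, 0, 29.6, 21.1, 49.9 and 44.1. All Ins2 libraries but replicate 2, which had no read, lay above every control. The log2 fold change was 0.58 (SE 0.79, limma adjusted p = 0.945, exact permutation p = 0.667), and without Ins2 replicate 2 it was 1.47 (limma adjusted p = 0.235). Leaving out Ins2 replicate 1, 5 or 6 gave 0.29, 0.33 or 0.37.

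The other 4 tested members overlapped between the groups in choroid plexus. Synpo2 had a log2 fold change of -0.27 (SE 0.25, limma adjusted p = 0.907), Tcf7l2 0.09 (SE 0.11, limma adjusted p = 0.939), Prkcd 0.03 (SE 0.08, limma adjusted p = 0.971) and Lef1 0.01 (SE 0.07, limma adjusted p = 0.989). Control replicate 2 stood apart in this tissue in oligodendrocyte genes: their sum reached 56104 scaled reads, while the control median was 3170. Without it Rora was at -0.19 and Slc17a7 at 0.62.

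The members' joint variation was also measured in choroid plexus. Over 15 pairs the median correlation was -0.22, beside -0.002 over all gene pairs. It was positive in 7 of 15 pairs (46.7%), near the 49.8% of all gene pairs. A correlation of at least 0.5 was found in 0 of 15, beside 9.47% of all gene pairs. By Pearson correlation 1 pair passed Benjamini-Hochberg adjustment over 15, and by Spearman 0. That pair was negative: Rora and Slc17a7, with r = -0.824 (permutation p = 0.0012, adjusted 0.018) and rho = -0.782 (permutation p = 0.00626, adjusted 0.0939). Without Ins2 replicates 1 and 2, r was -0.574.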

How the data were processed

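Strand-marked libraries were built from poly(A) RNA, per the labels' protocols. Alignment with HISAT2, counting with featureCounts and scaling with DESeq2 on GRCm38 (mm10) are named per the submitters' processing notes; the sources used here give neither versions nor the strand setting. In the deposited tables, 1 for each tissue, the signal of a gene is its count over the library's size factor, as the authors computed it per the labels. Dividing by the value of 1 read gave whole reads, within 0.02, for 100% of values. The members and gene lists were chosen with earlier results of these data known.

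Genes with a mean of at least 10 were fitted with limma 3.58.1 (lmFit and eBayes with trend, R 4.3.3) on log2(value + 1), with no covariate, two-sided, Benjamini-Hochberg adjusted over all genes tested; fold changes are on that scale and understate those of low genes. The script was tested on simulated data. Pair correlations used 100000 permutations of libraries (numpy 2.4.6). Exon lengths came from GENCODE on GRCm38.

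Named genes were all members, the 2 most abundant genes of each list and any called, and the 10 genes most like the members; Ins2 checked the labels. Of the genes this rule covers, 1 is not reported here and those of lists with medians near 0 stand only in the list counts. Rn45s, Axin2 and Pou4f1 were named outside the rule, after their values were seen. Alternatives were other pseudocounts, filters and scalings, edgeR 4.0.16 and DESeq2 1.42.0 on recovered reads, a replicate block, and leaving out each library.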

Additional observations from a re-analysis of the deposited data

Results flagged for a closer look

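Of 33 groups of member values examined for a sample far from the others, 3 were singled out, where chance gives about 1 in 20. Ntng1 in hypothalamus control replicate 2 was at 2026 scaled reads, above the other controls at 1790 to 1834. Calb2 in choroid plexus Ins2 replicate 1 was at 12.8, where the other Ins2 libraries had 0 to 4.13. Prkcd in the same choroid plexus library was at 1175, where the others had 1048 to 1091.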

How the results depend on the processing

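No member passed the threshold under any alternative run in either tissue. In hypothalamus the members' median log2 fold change stayed between 0.17 and 0.26. Lef1 was above 0 in 17 of 19 settings (-0.02 without control replicate 3 or Ins2 replicate 1), Calb2 in none (-0.08 to -0.02), and the other 8 members in all; Slc17a6 was at 0.06 without control replicate 3. Over the alternatives, list medians ran from 0.04 to 0.12 for habenula genes, 0.08 to 0.17 for subthalamic and mammillary genes, -0.12 to -0.07 for hypothalamus genes and -0.11 to 0.12 for midbrain genes; the replicate block left 7 of 10 reticular thalamus and zona incerta genes above 0. Counts over all hypothalamus genes moved with the tool: DESeq2 called 15 higher and 6 lower, and the replicate block 47 and 7. Leaving out 1 library gave 0 to 16 higher (16 without control replicate 6) and 0 to 2 lower. In choroid plexus, DESeq2 called 4 higher and 21 lower, a mean of at least 50 gave 1 higher, and leaving out 1 library gave 1 to 4 higher; the cause was not tested.

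With group means kept, the median correlation of member pairs was 0.38 in hypothalamus, with 21 pairs at 0.5 or more, and -0.12 in choroid plexus. Leaving out 1 library gave medians of 0.11 to 0.28 and 6 to 16 such pairs in hypothalamus, and medians of -0.40 to -0.12 with 4 to 7 positive pairs in choroid plexus. Choroid plexus Prkcd ran from -0.0036 to 0.10 and Lef1 from -0.033 to 0.044 when 1 library was left out, Synpo2 from -0.40 to -0.13 and Tcf7l2 from 0.02 to 0.14. Prkcd was at -0.0036 without control replicate 1 and -0.0019 without control replicate 4, and Lef1 at -0.033 without control replicate 5 and -0.0023 without Ins2 replicate 1.

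Replicate numbers were shared between groups. Same-numbered hypothalamus libraries did not deviate together (correlations from -0.07 to 0.01), nor did all choroid plexus pairs (-0.15 to 0.14). So few pairs cannot exclude a pairing by number, and the replicate block is given as an alternative. The block used the numbers of the sample titles, which do not match the deposited column codes for every hypothalamus library. By these numbers hypothalamus Ins2 replicate 5 and control replicate 6 had no partner. Whether either numbering marks a real pairing is not in the labels. Low read numbers limit Gbx2 and Slc17a7 in hypothalamus, and in choroid plexus Slc17a7 (0 to 63 reads) and the 4 members under the level filter.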
